A study of Homo sapiens with 2 samples.

Results

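The genes described here encode proteins that restrain the kinase complex mTORC1 from upstream, and they were taken from both gene tables by the NCBI gene ID of a fixed list of symbols. The list holds 10 of the 27685 gene IDs: DDIT4 and its paralogue DDIT4L, the sestrins SESN1, SESN2 and SESN3, CASTOR1, the tuberous sclerosis genes TSC1 and TSC2, AKT1S1, which encodes PRAS40, and DEPTOR. All 10 were found in each table. The study treated H1299, an established human non-small cell lung cancer line, with 5 mM metformin and compared it with untreated cells (control) of the same line in the same serum-containing medium. Each group is 1 library made from mRNA. Metformin, a biguanide diabetes drug, is known to inhibit mitochondrial complex I. How long the cells were exposed is not stated, and nothing says that there was more than 1 culture per group.

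As background, mTORC1 promotes protein synthesis and growth at the lysosome, where Rag GTPases recruit it and the GTPase RHEB switches it on. The TSC1-TSC2 complex turns RHEB off, and the DDIT4 product REDD1 promotes the action of that complex. Sestrins and CASTOR1 bind the GATOR2 complex when leucine or arginine is scarce, which lets GATOR1 turn off the Rag GTPases, while PRAS40 and DEPTOR bind the mTOR complex itself. DDIT4 and SESN2 are known stress genes of the transcription factor ATF4, and SESN3 is known as a target of FOXO factors.

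Abundances are in TPM, a unit that corrects for transcript length and makes a value relative to all other transcripts of its library. Aligned bases came to 6.40 Gb in the metformin library and 5.80 Gb in the control library, or about 31.7 M and 28.7 M read pairs. With 1 library per group no difference has a replicate check and no p-value is given. The 95% intervals below cover the counting of reads only. A gene was called measured at 1 TPM or more in at least 1 library, and higher or lower when the metformin value of log2(TPM + 1) minus the control value was 1 or more in size (2-fold). Since TPM is a share of the RNA, a change in the amount of RNA per cell cannot be told apart from these values. Markers checked for the line included VIM, the mesenchymal filament vimentin, listed at 4962 TPM in metformin and 4378 in control. The epithelial keratins KRT18 and KRT8 were listed at 954 and 521 TPM in metformin and 553 and 269 in control. The epithelial gene EPCAM was at 0.253 TPM in metformin and 0.0478 in control, and CDH1, which encodes E-cadherin, was below 0.02 TPM in both. CDH2, which encodes N-cadherin, was at 19.1 and 22.9 TPM. The surfactant genes SFTPB and SFTPC and the endothelial gene PECAM1 were at 0 in both libraries, and the fibroblast gene COL1A1 was at 0.342 TPM in metformin and 0.166 in control. PTPRC, a leukocyte gene, was listed at 0.0266 TPM in metformin and 0 in control.

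The sequences before the start of 4 of these genes are shown because DDIT4, SESN2 and CASTOR1 had the highest metformin to control ratios of the list, and TSC2 was the only member with a match to the ATF4 element core among the 8 searched. RefSeq (GRCh38.p14) gave windows for 8 of the 10 genes, and not for DEPTOR and AKT1S1. The stretches below run 5′ to 3′ in the direction of the gene and stop at the earlier of the RefSeq start and the start in the deposited tables. The full window of each, 250 bases, matched its own chromosome in GRCh37 (hg19) exactly and at 1 place. Other chromosomes were not searched, and the position given is that of the printed stretch. Capitals mark matches, on either strand, to TGATGNAA (the core of the element bound by C/EBP and ATF4), TGACG (CRE core), ACGTG (core of the hypoxia response element), TGTTTAC (FOXO core), GGGCGG (GC box) or CCAAT.
DDIT4 (chr10:74033432-74033676, plus strand): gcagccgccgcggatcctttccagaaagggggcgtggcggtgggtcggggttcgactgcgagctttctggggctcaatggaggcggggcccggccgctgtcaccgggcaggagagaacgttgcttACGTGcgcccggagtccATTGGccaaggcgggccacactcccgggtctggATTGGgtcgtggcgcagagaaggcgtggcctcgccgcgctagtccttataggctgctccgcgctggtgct
SESN2 (chr1:28585779-28585962, plus strand): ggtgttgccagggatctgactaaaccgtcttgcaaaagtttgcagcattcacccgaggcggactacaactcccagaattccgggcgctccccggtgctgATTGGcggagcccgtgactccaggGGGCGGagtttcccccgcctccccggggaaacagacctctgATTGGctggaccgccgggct
CASTOR1 (chr22:30685617-30685744, minus strand): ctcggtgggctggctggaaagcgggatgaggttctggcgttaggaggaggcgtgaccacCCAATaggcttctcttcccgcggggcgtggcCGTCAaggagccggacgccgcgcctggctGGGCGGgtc
TSC2 (chr16:2097736-2097895, plus strand): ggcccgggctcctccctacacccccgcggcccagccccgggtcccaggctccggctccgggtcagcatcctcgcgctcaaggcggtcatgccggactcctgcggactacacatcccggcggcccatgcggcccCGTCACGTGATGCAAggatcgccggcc

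Over the full 250 bases before the RefSeq start, which is longer than the stretches printed, the DDIT4 window held 1 match to ACGTG, at 125 to 121 bases before the start, and 2 to CCAAT on the opposite strand. In SESN2 there were 2 matches to CCAAT and 2 to GGGCGG. The CASTOR1 window held 3 matches to GGGCGG, 1 to CCAAT and 1 to TGACG. In the window that is printed in part, TSC2 had TGATGCAA at 110 to 103 bases before the start. In the same run of capitals TGATGCAA overlaps a match to ACGTG, which overlaps another to TGACG. The other TSC2 window in RefSeq, not printed, held 1 match to GGGCGG and none to the other motifs. TGATGNAA was found in 1 of the 8 genes and in 3.14% of the 35116 RefSeq windows, and TGTTTAC in none of the 8 and in 2.98% of windows. ACGTG occurred in 2 of the 8 genes (18.5% of windows), TGACG in 4 (21.2%), CCAAT in 4 (32%) and GGGCGG in 6 (42.6%). SESN1 and TSC2 have more than 1 window in RefSeq and were counted as having a motif when any of their windows did. These counts of genes can therefore run higher than the shares of single windows beside them. A match is a description of these letters and no evidence of binding.

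DDIT4 and SESN2 were the members with a difference past 2-fold, both higher in metformin, and no member was lower by 2-fold. Of all 14078 measured genes, 1.51% were higher and 1.24% lower by that rule, against 2 of the 9 measured members higher. The members were chosen with earlier results of these data known, so the count is a description. By the plain TPM ratio, CASTOR1 was also above 2, which made 3 of 9 members, while 2.89% of all genes were at or above that ratio and 2.77% at or below its inverse, where no member was found. How called genes split moved with the scaling: 54.9% of those called were higher as deposited, 70.3% after centring on the median of well expressed genes and 67.0% with a trimmed mean. DDIT4 and SESN2 were past 2-fold under all 3 scalings.

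**Figure D1:**
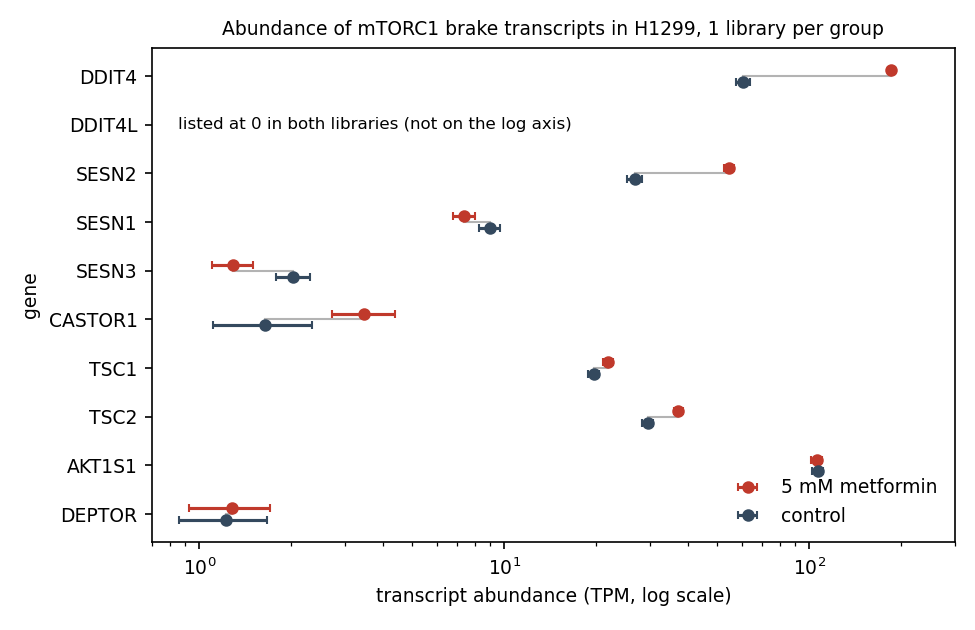
TPM (log axis) of each brake gene in the metformin library (red) and the control library (dark blue), 1 library each, with bars for the 95% counting interval. DDIT4 lies at 186 TPM in metformin and 60.8 in control and SESN2 at 54.7 and 26.8, while the AKT1S1 and DEPTOR points nearly coincide and DDIT4L is listed at 0 in both.

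DDIT4 encodes REDD1, a stress-induced protein that promotes the action of the TSC complex. It was listed at 186 TPM in the metformin library and 60.8 TPM in the control library, a ratio of 3.06 (95% counting interval 2.88 to 3.26) that rests on an estimated 4479 and 1293 read pairs. The difference of log2(TPM + 1) was 1.60, which ranked 45th from the top among the 14078 measured genes. By level, DDIT4 stood at rank 834 of all gene IDs in metformin and 3034 in control. In metformin it was the most abundant of the 10 transcripts, whereas in control AKT1S1 was above it. The gene (NCBI gene 54541) is short, on the plus strand of chromosome 10 at 74033677 to 74035794 of hg19. Neither the deposited tables nor GENCODE listed another gene across it. Under the 8 alternative settings its difference ran from 1.48 to 1.69 and was past 2-fold in all 8.

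The paralogue DDIT4L, which encodes REDD2, an inhibitor of mTOR signalling known from muscle, was listed at 0 TPM in both libraries. A count of 0 allows up to 3 read pairs, which for a transcript of this length would be 0.0837 TPM in metformin and 0.0946 TPM in control. No fold is therefore given, and DDIT4L was the 1 member that did not reach the measured level. It lies on the minus strand of chromosome 4 at 101107027 to 101111655 (NCBI gene 115265). Its antisense neighbour DDIT4L-AS1 was likewise listed at 0 in both libraries. Genes that every cell uses, such as ACTB and GAPDH, were listed at 3631 and 11732 TPM in metformin and 3918 and 12169 TPM in control.

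SESN2, a sestrin known to bind leucine, was listed at 54.7 TPM in metformin and 26.8 TPM in control, from an estimated 2607 and 1129 read pairs. The ratio was 2.04 (1.90 to 2.19) and the difference 1.003, which put it at rank 212 from the top and only just past the 2-fold line. The counting interval of the ratio reaches below 2. With the trend over GC content and transcript length removed the difference was 0.86, and with a pseudocount of 5 SESN2 also fell short of 2-fold. In all 8 alternatives the difference was positive, and 6 kept it past the line. The gene (NCBI gene 83667) lies on the plus strand of chromosome 1 at 28585963 to 28609002, where no other listed gene overlaps it.

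The other sestrins lay below their control values. SESN1, a stress-responsive sestrin, was listed at 7.37 TPM in metformin and 8.97 TPM in control, a ratio of 0.822 (0.732 to 0.922). SESN3, known as a FOXO target, was listed at 1.29 TPM in metformin and 2.03 TPM in control, a ratio of 0.633 (0.517 to 0.775). Both intervals lie below 1, but so did those of 41.8% of the 13468 genes with an interval, while 23.8% had intervals above 1. The median ratio over measured genes was 0.941. The SESN1 difference of -0.25 and the SESN3 difference of -0.41 had 29.2% and 15.5% of measured genes at or below them. No alternative turned either difference positive: SESN1 ran from -0.28 to -0.13 and SESN3 from -0.62 to -0.16. SESN1 (NCBI gene 27244) lies on chromosome 6 at 109307640 to 109415708 and SESN3 (NCBI gene 143686) on chromosome 11 at 94898677 to 94965705, both on the minus strand. Each has a long noncoding RNA on the opposite strand that shares exonic bases with it. At SESN3 this RNA is LNCRNA-IUR, listed at 0 TPM in both libraries, while that at SESN1 has no value here. No source used here says whether reads were counted by strand.

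Summed over the family, sestrin transcripts amounted to 63.3 TPM in metformin and 37.8 TPM in control, a ratio of 1.68. SESN2 made up 86.3% of that sum in metformin and 70.9% in control. The SESN1 share was 11.6% in metformin and 23.8% in control, and the SESN3 share 2.04% and 5.39%. There were thus 7.41 SESN2 transcripts for each SESN1 transcript in metformin and 2.98 in control, counted per length.

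**Figure D2:**
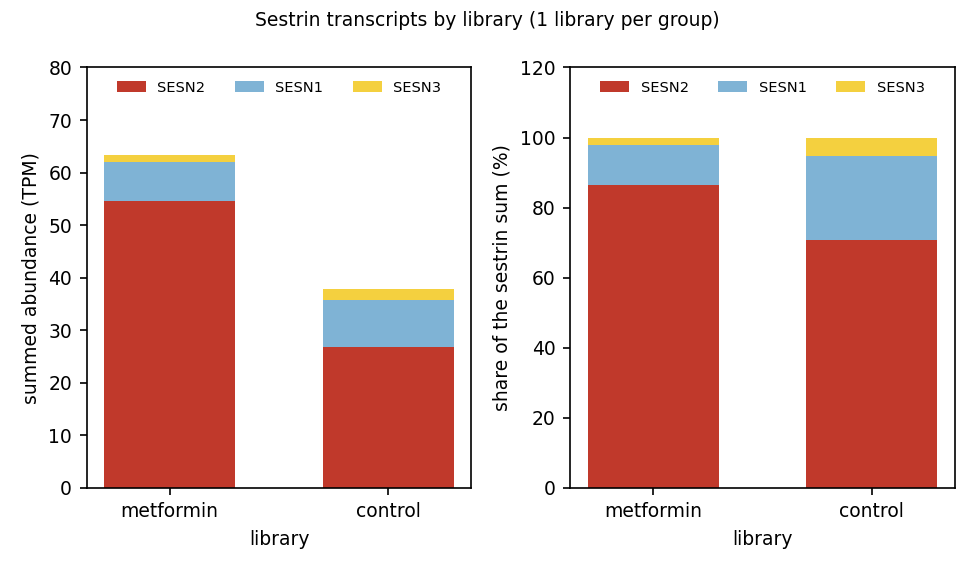
Stacked bars of SESN2, SESN1 and SESN3 in the metformin library (left bar) and the control library (right bar), as summed TPM in the left panel and as a share of the sestrin sum in percent in the right panel. The sum is 63.3 TPM in metformin and 37.8 TPM in control, and SESN2 is 86.3% and 70.9% of it.

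CASTOR1, the arginine sensor, was listed at 3.48 TPM in metformin and 1.65 TPM in control. Its plain ratio of 2.11 was the second highest of the members, but it rested on an estimated 72 and 30 read pairs, so the interval ran from 1.36 to 3.35. On the log2(TPM + 1) scale, which shrinks low genes, the difference was 0.76, rank 424 from the top, and short of 2-fold. It was 1.04 with a pseudocount of 0.1 and 0.35 with a pseudocount of 5, so whether CASTOR1 passes 2-fold depends on that choice. The gene (NCBI gene 652968) lies on the minus strand of chromosome 22 at 30681107 to 30685616. In GENCODE a protein-coding read-through model on the same strand shares 1262 exonic bases with CASTOR1, so reads of that model could be assigned to it. CASTOR2, its paralogue, which could share reads with the related pseudogene CASTOR3P, was listed at 7.95 TPM in metformin and 9.17 TPM in control, a ratio of 0.867 (0.789 to 0.953). CASTOR2 thus exceeded CASTOR1 by 2.29 times in metformin and 5.57 times in control.

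Transcripts of the TSC complex were somewhat more abundant in metformin. TSC2, whose protein carries the GTPase-activating domain for RHEB, was listed at 37.2 TPM in metformin and 29.5 TPM in control, a ratio of 1.26 (1.20 to 1.33). TSC1, which stabilises TSC2, was listed at 21.9 TPM in metformin and 19.6 TPM in control, a ratio of 1.12 (1.05 to 1.18). The differences were 0.32 and 0.15, with 13.6% and 24.5% of measured genes at or above them. Intervals above 1 were also seen for 23.8% of all genes with an interval. TSC2 outnumbered TSC1 by 1.70 to 1 in metformin and 1.51 to 1 in control. TBC1D7, the third subunit, was listed at 42.7 TPM in metformin and 32.5 TPM in control, 1.31 (1.17 to 1.47) times its control value. Without the GC and length trend the TSC2 difference was 0.17 and that of TSC1 0.12.

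TSC2 (NCBI gene 7249) lies on the plus strand of chromosome 16 at 2097896 to 2138721, and its end overlaps that of PKD1 on the other strand, which was listed at 17.3 TPM in metformin and 14.5 TPM in control. TSC1 (NCBI gene 7248) lies on the minus strand of chromosome 9 at 135766735 to 135820020, and GFI1B, which shares exonic bases with it on the other strand, was listed at 0.0295 TPM in metformin and 0 in control. RHEB, the GTPase that the complex inactivates, went the other way, with 153 TPM in metformin and 184 TPM in control, a ratio of 0.831 (0.797 to 0.867). Its transcript stood at 4.10 times that of TSC2 in metformin and 6.22 times in control. DDIT4 reached 5.00 times the TSC2 level in metformin and 2.06 times in control.

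The inhibitors that bind the mTOR complex itself were close to their control values. AKT1S1, which encodes PRAS40, an AKT substrate that binds raptor, was listed at 106 TPM in metformin and 107 TPM in control. Its ratio of 0.992 had an interval of 0.937 to 1.05, from an estimated 2585 and 2304 read pairs. The sign of this difference, -0.01, turned to 0.08 under both other scalings, was also positive with FPKM, and was -0.17 without the GC and length trend, so no direction is given. DEPTOR, which binds mTOR, was listed at 1.28 TPM in metformin and 1.23 TPM in control, a ratio of 1.04. Only about 45 and 38 read pairs lie behind it, and its interval of 0.662 to 1.65 would hold a difference of 1.5-fold in either direction.

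AKT1S1 (NCBI gene 84335) lies on the minus strand of chromosome 19 at 50372290 to 50381613. In GENCODE it shares 151 exonic bases with TBC1D17 on the other strand, which was listed at 31.4 TPM in metformin and 24.7 TPM in control, well below AKT1S1. DEPTOR (NCBI gene 64798) lies on the plus strand of chromosome 8 at 120885895 to 121063157, with an antisense RNA across its start. The transcript of MTOR, the kinase that both proteins restrain, was listed at 57.1 TPM in metformin and 56.1 TPM in control. MTOR exceeded DEPTOR by 44.7 times in metformin and 45.8 times in control, while AKT1S1 exceeded MTOR by 1.85 and 1.90 times.

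**Figure D3:**
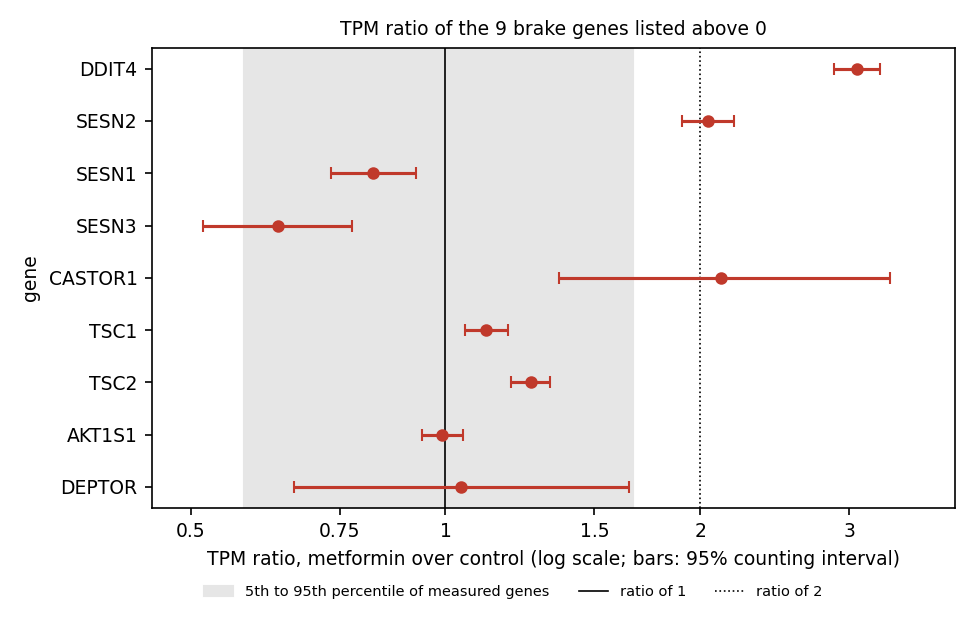
TPM ratio of metformin over control (log axis) for the 9 brake genes listed above 0, with bars for the 95% counting interval. The grey band is the 5th to 95th percentile of measured genes, 0.577 to 1.67: DDIT4 (3.06), CASTOR1 (2.11) and SESN2 (2.04) lie to its right, and no member lies to its left.

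In order of level, metformin had DDIT4, AKT1S1, SESN2, TSC2, TSC1, SESN1, CASTOR1, SESN3 and DEPTOR, of which only the last pair of neighbours had overlapping counting intervals. In control the order was AKT1S1, DDIT4, TSC2, SESN2, TSC1, SESN1, SESN3, CASTOR1 and DEPTOR. There TSC2 and SESN2 overlapped, as did SESN3 with CASTOR1 and CASTOR1 with DEPTOR. SESN2 was above TSC2 in metformin and below it in control, DDIT4 likewise changed places with AKT1S1, and CASTOR1 with SESN3. The 10 transcripts summed to 419 TPM in metformin and 257 TPM in control. DDIT4 supplied 44.4% of that sum in metformin and 23.6% in control, and AKT1S1 25.2% and 41.5%. Without DDIT4 and SESN2 the others summed to 178 TPM in metformin and 170 TPM in control, a ratio of 1.05.

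Over the 9 measured members, 6 differences lay above 0 and 3 below, with a median of 0.15. Over all measured genes 40.3% lay above 0 and the median was -0.08. The counting interval lay above 1 for 5 members (DDIT4, SESN2, CASTOR1, TSC1 and TSC2) and below 1 for 2 (SESN1 and SESN3). These shares are descriptions and were not tested, as the members were not an independent choice.

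Differences across the transcriptome moved with the GC content of the transcript, with a Spearman correlation of 0.34 across 13521 genes, which are not independent replicates. The 4 members of highest ratio were GC-rich: DDIT4 had 58.1% GC, SESN2 59.6%, CASTOR1 60.3% and TSC2 60.4%. The sestrins below 1 were GC-poor, SESN1 with 40.6% and SESN3 with 37.1%. AKT1S1, the member richest in GC at 64.1%, had a difference of -0.01. Genes within 2 percentage points of DDIT4 in GC content had a median difference of 0.03, against 1.60 for DDIT4, and those near SESN2 0.05, against 1.003. For SESN1 the genes of like GC content had a median of -0.20, against its own -0.25, and for SESN3 -0.25, against -0.41. With the trend over GC content and length removed, CASTOR1 had a difference of 0.63, SESN1 -0.13 and SESN3 -0.22, and DEPTOR 0.07.

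**Figure D4:**
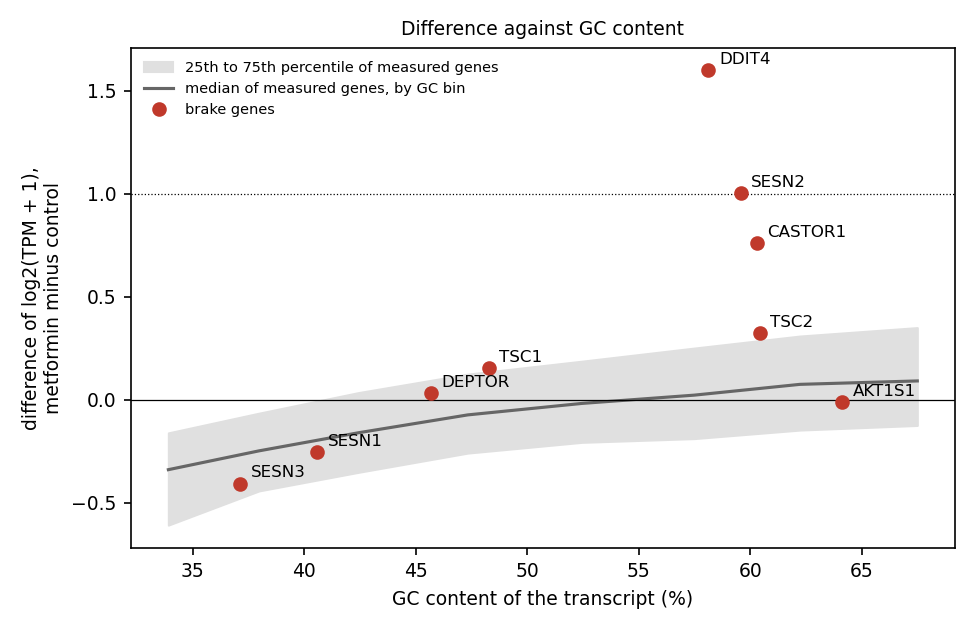
Difference of log2(TPM + 1), metformin minus control, against the GC content of the transcript in percent for the 9 measured brake genes (red), with the median (line) and the 25th to 75th percentile (grey) of all measured genes in bins of GC content. DDIT4, SESN2, CASTOR1 and TSC2 lie above the grey area at 58.1% to 60.4% GC, and TSC1 lies just above it at 48.3%. SESN1 and SESN3 lie within the grey area at 40.6% and 37.1%.

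In the lists of other pathway genes, from nutrient sensors to kinases and binding partners, no gene was past 2-fold, which is near what the 1.51% higher and 1.24% lower among all measured genes would give for lists of this size. In GATOR1, the complex that turns off the Rag GTPases, NPRL2 had a ratio of 1.19 (1.02 to 1.37) and DEPDC5 of 0.954, with 2 of 3 above 0 and a median of 0.18. KICSTOR, which holds GATOR1 at the lysosome, had 3 of 4 above 0 (median 0.13), with ITFG2 at 0.863 of control. GATOR2, the complex that sestrins and CASTOR1 bind, had 3 of 5 above 0 and a median of 0.00, between SEC13 at 1.26 and SEH1L at 0.723. Among CASTOR2, SAR1B, SAMTOR and TBC1D7, 3 of 4 lay below 0 (median -0.17), and SAMTOR, the sensor of S-adenosylmethionine, was listed at 3.23 TPM in metformin and 5.80 TPM in control. Rag GTPases, Ragulator and SLC38A9 had 3 of 10 above 0 (median -0.09), and the list of mTOR complex subunits and assembly factors 2 of 8 (median -0.19), with TELO2 at 0.783. RHEB and RHEBL1 were both below 0 (median -0.22). Kinases that act on TSC2 or PRAS40 had 3 of 12 above 0 (median -0.06), among them PRKAA1, a catalytic subunit of AMPK, at 0.786 and PIM1 at 1.20. In the list of factors that degrade or bind REDD1, DEPTOR, TSC2 or PRAS40, 5 of 12 lay above 0 (median -0.03). Its highest ratios were those of YWHAH, a 14-3-3 protein gene, at 1.66 and FBXW11, an F-box protein gene, at 1.50. Counting intervals in this list lay above 1 for 3 genes and below 1 for 6. After centring, the medians of the Rag and Ragulator list, the kinases and the factors that degrade or bind the brakes were 0.00, 0.03 and 0.06, so these lists have no settled direction. With the trend over GC content and length removed, the median of CASTOR2, SAR1B, SAMTOR and TBC1D7 was 0.02, so its direction is not settled either, and those of GATOR1 and KICSTOR were 0.03 and 0.07.

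Lists of genes under some of the factors known to drive DDIT4 and the sestrins were set beside the members. All 16 genes of the ATF4 list lay above 0, with a median of 0.68, and 4 were higher by 2-fold, against 1.51% of all genes. TRIB3, a pseudokinase induced by ATF4, was listed at 98.4 TPM in metformin and 35.5 TPM in control, and JDP2, a bZIP factor, at 11.4 and 3.73 TPM, a ratio of 3.07 (2.66 to 3.55) next to the 3.06 of DDIT4. ATF4 itself had a ratio of 1.29. For HIF1A and HIF targets, of which DDIT4 is another, 2 of 9 lay above 0, with a median of -0.23 and BNIP3 at 0.713. The glucocorticoid receptor gene and its targets, among which DDIT4 is also known, had 4 of 6 above 0 (median 0.29), with DUSP1 at 2.05 and FKBP5 at 0.916. FOXO factors and targets had 7 of 10 above 0 (median 0.06) and 2 higher by 2-fold, with KLF2 at 5.13 and FOXO1 at 0.749. These lists were chosen with earlier results of these data known, and which factor acted on which member was not tested. TXNIP, which did not reach the measured level, is in the FOXO list and in the list of factors that degrade or bind the brakes.

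**Figure D5:**
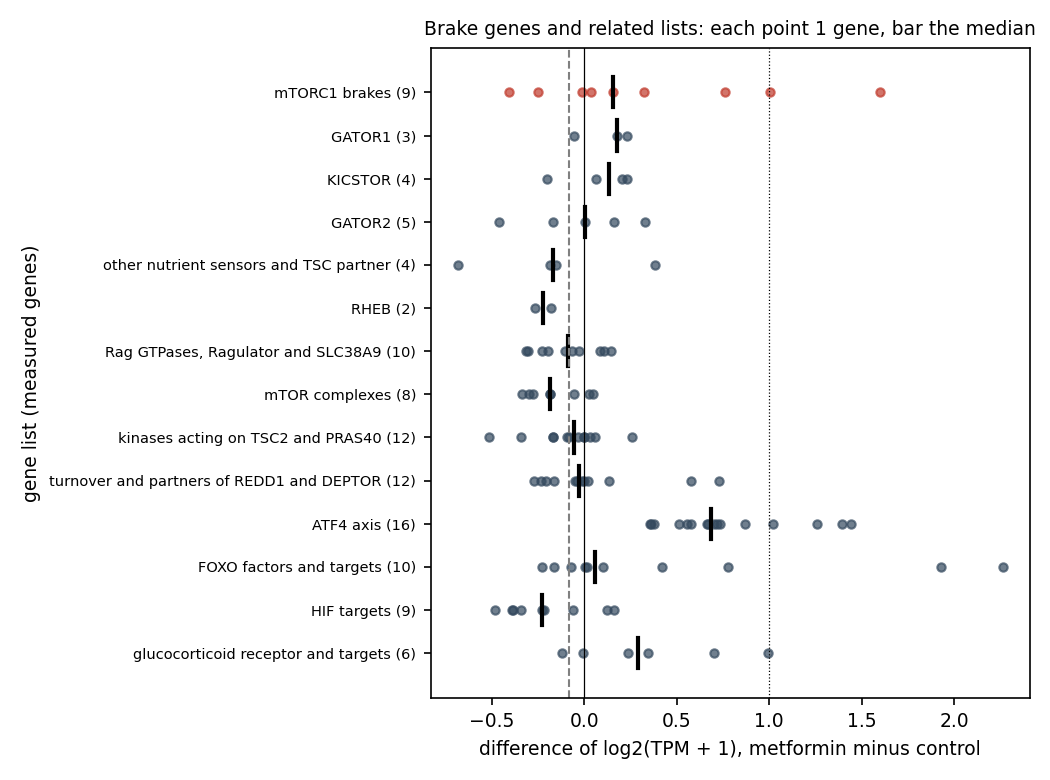
Difference of log2(TPM + 1), metformin minus control, of each measured gene in the brake list (red) and the related lists described here (blue), with the number of measured genes in brackets and a black bar at the median. The dashed line marks the median of all measured genes, -0.08, and the dotted line 2-fold: the ATF4 list lies wholly above 0 with a median of 0.68, whereas the brake list spreads from -0.41 to 1.60.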

How the data were processed

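RNA of H1299 cells with and without metformin was sequenced as 1 library each on a NovaSeq after preparation with a stranded mRNA kit, per the labels' protocols. Per the labels' protocols, Bowtie2 was the mapper and hg19 the build. Trimmomatic 0.38, HISAT2 and GRCh37 appear too, per the submitters' processing notes. Which program made the abundances is not stated. TPM and FPKM were computed by the authors, and coverage, the mean depth over a gene, was deposited beside them. TPM was used for the main values.

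Gene IDs were matched to RefSeq symbols (27539 of 27685), and rows of an ID were summed. Aligned bases were taken as the largest ratio of coverage to FPKM, and pairs as 202 bases, the total found most often for short genes holding few reads (25 of 119 between 150 and 250 bases in metformin, 16 of 102 in control). Pairs per gene were computed with GENCODE 44 canonical transcript lengths (GRCh37); their sum was 107% of either library's total. Ratio intervals are exact (Clopper-Pearson) binomial intervals on these pairs and level intervals are exact Poisson intervals. Differences are on the log2 scale with a pseudocount of 1, which understates low genes; ratios are plain TPM ratios. Related genes were named as up to 2 at each end of a list, and all 10 members were described; some genes that the rule took, and 1 list, are not reported here; the members, lists and motifs were chosen with earlier results of these data known. The difference, the call rule and the ratio interval were tested on counts simulated with counting error only. The estimate of read pairs, the trend removal and the motif search were not tested in this way. Python 3.11.15, numpy 2.4.6, pandas 2.3.3 and scipy 1.17.1 were used.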

Additional observations from a re-analysis of the deposited data

How the results depend on the processing

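The 8 alternatives were a pseudocount of 0.1 or 5, no filter or a minimum of 5 TPM, FPKM in place of TPM, centring on the median difference (-0.09) of genes with at least 10 TPM in each library, a trimmed mean of log ratios, and removal of the trend over GC content and length. The count of brake genes past 2-fold, 2 as reported, was 3 with a pseudocount of 0.1, where CASTOR1 joined. It was 1 with a pseudocount of 5 and 1 with the trend removed, DDIT4 in each case. Over all genes, the 213 higher and 175 lower genes became 389 and 353 with a pseudocount of 0.1, 58 and 45 with a pseudocount of 5, 121 and 115 at the minimum of 5 TPM, and 113 and 67 with FPKM. The lower count was 114 after centring and 116 with the trend removed. A larger pseudocount shrinks the differences of low genes and a higher minimum removes such genes; the causes of the other changes were not tested. SESN3 and DEPTOR dropped below the minimum with FPKM and at 5 TPM, and CASTOR1 at 5 TPM. No difference of a member changed sign under any alternative except that of AKT1S1, the measured member with the smallest difference in size, which was positive in 3 of the 8. Depth limited CASTOR1 and DEPTOR most. No paired analysis was possible because each group is 1 library, and no library could be left out for the same reason.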
